A study of Mus musculus with 6 samples.

Results

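The 637 cytosines described here were the most deeply read of the autosomal methylation table. They were selected on read number: their reads, methylated and unmethylated together, summed to at least 500 over the 6 samples. They were drawn from the 642744 cytosines listed on chromosomes 1 to 19, their random contigs and unplaced sequence. They made up 0.0991% of those cytosines. Their median was 2011 reads in all, against 65 for all listed autosomal cytosines, and the deepest had 155126. Read number chose them, so their depth is given as a description without a test, and only their methylation levels were tested.

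The study followed mouse bone marrow (strain C57BL/6J, all samples labelled male) into dendritic cells by reduced representation bisulfite sequencing, which reads cytosines close to cut sites of MspI and TaqI. Uncultured bone marrow stood for day 0 (replicates 2 and 3). Cells labelled as common myeloid progenitors were taken at day 4 (replicates 1 and 2), and cells labelled as bone marrow derived dendritic cells at day 7 (replicates 1 and 4). The cultured cells grew in medium with Flt3L, supplied as the supernatant of a transfected SP2/0 line, and were taken as all live cells without a sort, so each label names a whole culture. Whether replicates were separate animals or cultures is not in the labels. The p-values therefore cover the spread among these 6 samples, and that spread may be technical.

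DNA present in many near-identical copies is commonly read far more deeply than single-copy DNA. Ribosomal RNA genes stand in tandem arrays whose repeats each carry the 45S precursor, from which the 18S, 5.8S and 28S RNAs are cut, and only a part of the repeats is transcribed in a cell. The major satellite is a short tandem repeat that fills the pericentromeric heterochromatin and is densely methylated in most somatic cells. An assembly holds few of these copies, so reads from all of them can be placed on the few that are there. The methylation level at such a position is then an average over copies as well as over cells, and its depth depends on copy number, on the share of copies that aligned there and on amplification. These contributions cannot be told apart in the table. The working name for these sites, multi-copy DNA, was therefore checked only by position, spacing and level, since no mm9 sequence or annotation was used here. For the same reason no sequence is printed.

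Library depth differed between samples. Autosomal reads ranged from 3584915 in day 7 replicate 4 to 10133364 in day 4 replicate 1, and the median reads per autosomal cytosine from 4 to 14. Both day 7 libraries stood apart in chromosome content: the mean reads of X cytosines relative to autosomal ones, without the very deepest, was 1.00 and 1.07, against 0.650 to 0.688 in the other 4, and the reads on unplaced Y sequence for each 1000000 autosomal reads outside the deep cytosines numbered 40.1 and 43.7 against 59.9 to 74.8. The X values at day 7 differ from those of the other samples although all 6 are labelled male, and the part of this difference in the results at day 7 was not tested. Methylated reads on the mitochondrial sequence, which serves as a rough gauge of unconverted cytosines, were 0.490% to 1.17% at days 0 and 4 and 2.27% and 1.76% in day 7 replicates 1 and 4.

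The 637 cytosines fell into 34 loci when neighbours within 10 kb were joined, and into 98 runs when neighbours within 100 bp were joined. Close neighbours in a run can be covered by the same reads, so the cytosines of a run are not independent measurements. A long run is not covered by the same reads throughout. The placement was uneven. Chromosome 17 held 341 of them, all in a single locus at mm9 chr17:39979959-39985654, taken here from its position as the assembled copy of the 45S ribosomal repeat. In the window around this copy 570 cytosines were listed, and 59.8% of them were deep. Another 125 lay in 9 loci in the first Mb of listed sequence of a chromosome, which in mm9 follows the centromeric gap. There 2.49% of the 5016 listed cytosines were deep, against 0.0235% of the 630848 listed in chromosome interiors. The interior loci numbered 22, with 148 deep cytosines. The last Mb of listed sequence held 22 deep cytosines in 1 locus, unplaced sequence held 1, and none of the 489 cytosines on random contigs was deep. At the limit itself, the cytosines just inside it were chr9:3000381 and chr17:39980180 with 501 reads each and chr1:24619816 with 502. Those just outside were chr9:3020715 with 493 reads and chr9:3022192 and chr6:47728141 with 498 each.

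Deep cytosines took 5.09% and 5.18% of the autosomal reads of the day 0 samples. They took 5.51% and 6.27% at day 4, then 6.44% and 18.3% in day 7 replicates 1 and 4. The group means were 5.13% ± 0.0623, 5.89% ± 0.538 and 12.3% ± 8.36 (SD, n = 2). The 6 values did not overlap between days, and day 7 replicate 4, the shallowest library, lay far above the rest. Both leading loci, on chromosomes 2 and 17, held 87.1% of all reads at deep cytosines.

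Relative depth was computed per locus as its reads for each 1000000 autosomal reads that lay outside the deep cytosines (RPM). It was summed over the cytosines of the locus, so that a read covering several of them counts at each. The locus with the most reads was chr2:98502421-98507482, with 53 deep cytosines and 1354213 reads. Its relative depth was 17157 and 15877 RPM at day 0, 20215 and 25536 at day 4, then 32338 and 158519 at day 7. The days did not overlap, and the group mean was 1.38-fold higher at day 4 and 5.78-fold higher at day 7 than at day 0. Most of the day 7 value came from replicate 4: it stood 9.60-fold above the day 0 mean, and replicate 1 stood 1.96-fold above it. Among its cytosines the change was unequal, with ratios of relative depth, day 7 to day 0, from 0.683 to 28.6. The reads of single cytosines given next are not scaled to library depth, which was lowest in day 7 replicate 4. Its deepest cytosine, chr2:98506429, had 37452 and 24341 reads at day 0, 38724 and 26101 at day 4, then 19825 and 8683 at day 7. By contrast chr2:98507306 in the same locus had 11924 and 9305 reads at day 0, 16885 and 15489 at day 4, then 20465 and 55138 at day 7.

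The start of chromosome 9, chr9:3000341-3034926, held 80 deep cytosines. Its relative depth was 1540 and 1372 RPM at day 0, 1812 and 2210 at day 4, then 2492 and 12587 at day 7. The order of samples was that of the chromosome 2 locus, with a group mean at day 7 that was 5.18-fold higher than at day 0. Replicate 1 stood 1.71-fold and replicate 4 8.65-fold above the day 0 mean. A smaller locus, chr9:35112845-35113167 with 9 deep cytosines, had 241 and 236 RPM at day 0, 318 and 506 at day 4, then 741 and 5762 at day 7. It was 1.73-fold deeper at day 4 and 13.6-fold deeper at day 7 than at day 0, with replicate 1 at 3.11-fold and replicate 4 at 24.2-fold above the day 0 mean. In these 3 loci the relative depth of day 7 replicate 4 was the highest of all samples.

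Some spacings between cytosines recurred among these loci. Each of the 9 positions at chr9:35112845-35113167 coincided, after a single shift, with a deep cytosine of chr2:98506839-98507161, whereas the next best shift matched 6. Against the start of chromosome 9 the best shift matched 8 of these 9 and the next best 7. Between the chromosome 2 locus and the start of chromosome 9 the best shift matched 10 positions, and so did the next best. Among distances of 150 to 400 bp between deep cytosines, 234 bp was the most frequent at the start of chromosome 9, with 18 pairs. At chromosome 2 it was tied with 251 bp at 8 pairs each. The repeat unit of the mouse major satellite is 234 bp long. Distances are a description of positions and do not identify a sequence.

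The methylation levels of these loci were high. Over its 53 cytosines the chromosome 2 locus averaged 76.2% and 72.0% at day 0, 80.7% and 76.7% at day 4, then 76.7% and 71.5% at day 7. The start of chromosome 9 averaged 80.7% and 75.9%, then 82.6% and 79.3%, then 79.4% and 75.5%. At chr9:35112845-35113167 the averages were 76.4% and 75.5%, then 79.1% and 77.2%, then 73.3% and 69.9%. The differences between day 7 and day 0 were 0.01, -0.78 and -4.41 percentage points. In an exact two-sided permutation test over samples, where 2 against 2 cannot go below 0.333, their p values were 1, 0.667 and 0.333. After Benjamini-Hochberg adjustment over the 33 such tests made on loci and on all deep cytosines, none of the 33 fell below 0.786.

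Within these loci a few cytosines kept far lower levels than their neighbours. At chr2:98503060 the level was 5.33% and 7.41% at day 0, 7.32% and 3.88% at day 4, then 7.14% and 0.501% at day 7, over 54 to 399 reads a sample. The median cytosine of the locus, averaged over samples, was at 79.3%. At chr9:3000469 the level was 29.0% and 26.1%, then 28.1% and 22.2%, then 18.3% and 26.6%, against a median of 80.2% for its locus. Both cytosines stood apart from their neighbours in each of the 6 samples.

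**Figure D1:**
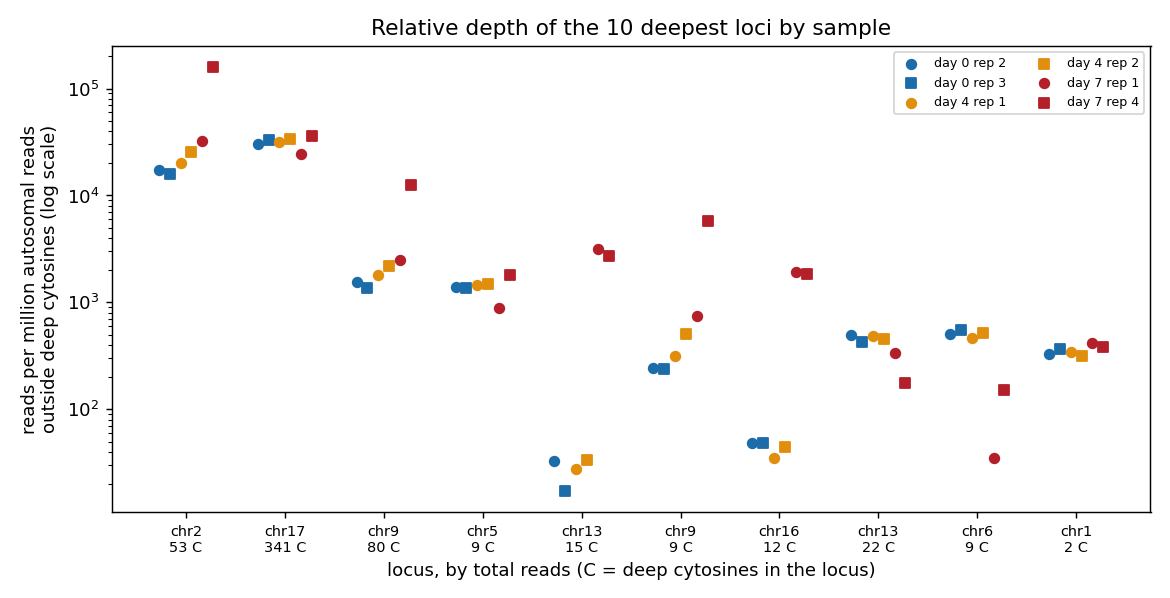
Relative depth of the 10 loci with the most reads, in RPM (log axis), 1 point per sample, coloured by day. Day 7 replicate 4 lies highest at the chromosome 2 locus and at both chromosome 9 loci (158519, 12587 and 5762 RPM), and both day 7 samples lie far above the other 4 at chr13:9833565 and chr16:57391487.

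At the ribosomal copy of chromosome 17 the days overlapped in depth. Its 341 deep cytosines held 1334339 reads, 43.3% of all reads at deep cytosines. The relative depth of the locus was 30079 and 32753 RPM at day 0, 31391 and 33691 at day 4, then 24510 and 35655 at day 7. The ratio of day 7 to day 0 was 0.958, with the lowest and the highest sample both at day 7. The median deep cytosine of the copy was 30.7 to 67.0 times as deep as the median autosomal cytosine of its library, with day 7 replicate 1 at the low end and day 7 replicate 4 at the high end.

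Within this total, depth was higher in some stretches of the copy and lower in others at day 7. Relative to day 0, 51 of its cytosines were at least 2-fold deeper at day 7 with no overlap between the days, 75 were at least 2-fold shallower, and 215 were neither, beside 4.7% and 3.79% of all autosomal cytosines that were as much deeper or shallower. The ratios ran from 0.0712 to 46.7. The deeper cytosines had median reads of 80 and 38 at day 0, 48 and 41 at day 4, then 892 and 331 at day 7. The shallower ones had medians of 1534 and 1224, then 1509 and 1055, then 274 and 201. Deeper and shallower cytosines lay in alternating stretches, each class in 5 of the 10 runs of the copy. Between 3000 and 4000 bp from the first deep cytosine 24 of 47 were shallower and 0 deeper, whereas in the next 1000 bp 17 were shallower and 11 deeper.

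Single positions show the size of these differences. At chr17:39983802 the reads numbered 970 and 1047 at day 0, 1078 and 873 at day 4, then 4 and 50 at day 7. At chr17:39984096 they were 23 and 14, then 29 and 21, then 896 and 269. At days 0 and 4 the former was therefore among the well-read positions and the latter close to the autosomal median, and at day 7 this order was turned. Between day 4 and day 0 none of the 341 cytosines passed the 2-fold limit in either direction.

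**Figure D2:**
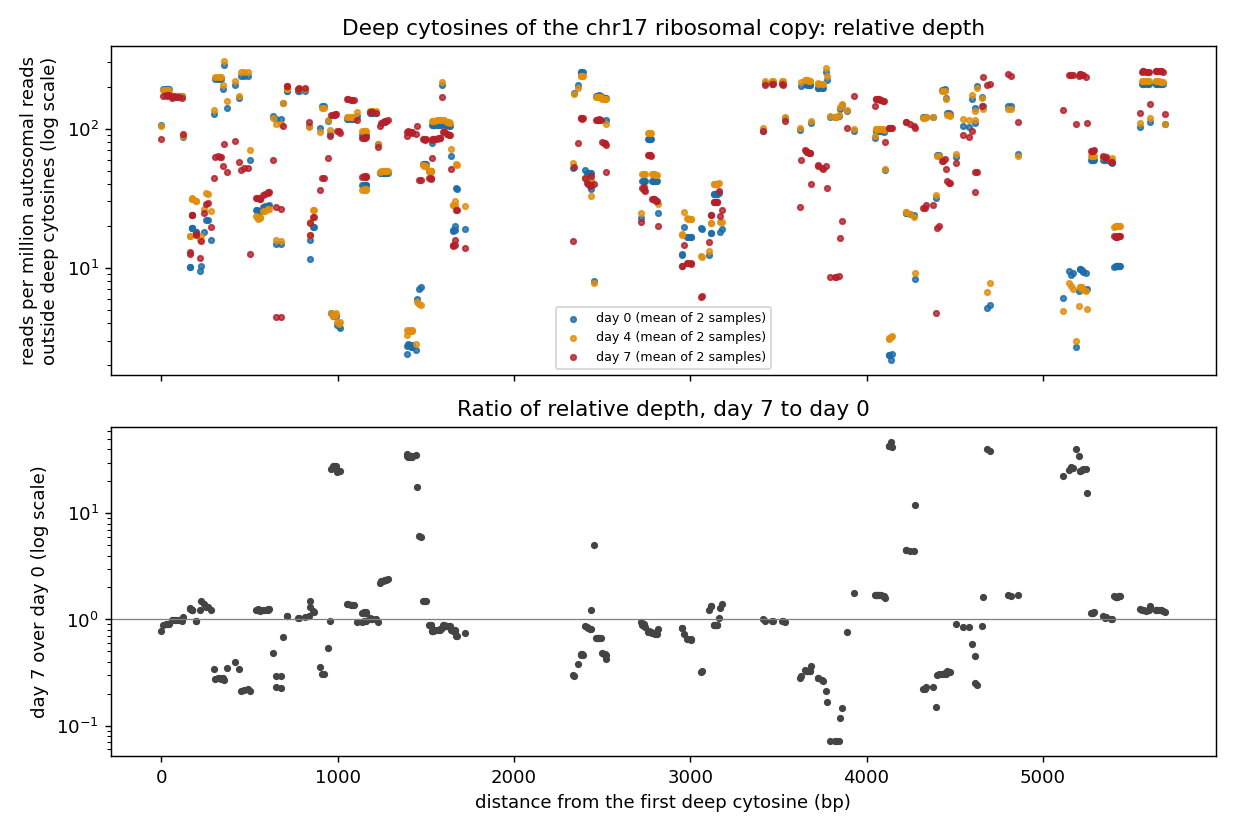
Relative depth of the 341 deep cytosines of the ribosomal copy (top, mean of 2 samples per day, log axis, in RPM) and the ratio of day 7 to day 0 (bottom, log axis), against distance from the first deep cytosine in bp. The ratios of day 4 to day 0 ran from 0.628 to 1.95. Day 7 departs further, in separate stretches, with ratios to day 0 from 0.0712 to 46.7.

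Methylation of the ribosomal copy was low throughout. Averaged over samples its cytosines ran from 2.93% to 33.4%, with a median of 12.9%. In this average all but 3 of the 341 were below 30%. The lowest was chr17:39980608, at 3.54% and 3.08% at day 0, 4.41% and 3.70% at day 4, then 2.86% and 0% at day 7, the last over 13 reads, a depth at which a count of 0 allows a level of up to 23.1% from counting error alone. The highest was chr17:39981565, at 25.9% and 31.3%, then 33.4% and 34.8%, then 36.2% and 39.1%. These cytosines lie 957 bp apart, and their levels did not overlap in any sample.

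The mean level of the copy was 10.3% and 11.8% at day 0, 11.9% and 13.0% at day 4, then 12.9% and 21.5% at day 7. The group means were 11.04% ± 1.10, 12.4% ± 0.804 and 17.2% ± 6.08 (SD, n = 2). Day 7 replicate 4 stood well above the other 5 samples, which spanned 2.72 percentage points. The difference between day 7 and day 0, 6.12 percentage points, reached the smallest p of the exact permutation test, 0.333 (adjusted p = 0.786). Without day 7 replicate 4 it was 1.82 percentage points.

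Day 7 replicate 4 was higher than replicate 1 across nearly the whole copy. Of the 337 ribosomal cytosines that each sample covered by 10 reads or more, 317 were higher in replicate 4, by a median of 9.01 percentage points. Other autosomal sites of low level had like means in both day 7 samples. Among cytosines below 30% at days 0 and 4, the 381 deep ones had means of 13.3% in replicate 1 and 21.6% in replicate 4. The 9257 other autosomal ones had means of 3.16% and 3.09%. The latter lay near the lower limit of the scale: their sample means at days 0 and 4 were 1.77% to 1.99%. Those of the deep ones were 10.0% to 12.7%. They were therefore no like comparison, and whether the difference was particular to deep cytosines was not tested. The share of methylated reads on the mitochondrial sequence was lower in replicate 4 than in replicate 1. In loci of high level the direction was opposite: all 53 cytosines of the chromosome 2 locus were lower in replicate 4 than in replicate 1, by a median of 4.66 percentage points, and 58 of the 80 at the start of chromosome 9 were lower, by a median of 3.26. Among 3180 other autosomal cytosines at 65% or above at days 0 and 4, 1673 were lower and 1340 higher in replicate 4, with a median difference of -1.40 percentage points, so the direction was not limited to these loci.

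The levels were close in stretches that gained and lost depth. In the day 7 samples the 51 deeper cytosines averaged 11.8% and 22.5%, the 75 shallower ones 12.0% and 21.5%, and the 215 others 13.4% and 21.2%. At day 0 the same 3 classes averaged 9.03% and 12.3%, 9.59% and 10.6%, and 10.8% and 12.1%. Each class was within 1.61 percentage points of the others in either day 7 sample. Across the 1000-bp stretches of the copy the mean in replicate 4 ran from 18.8% to 23.4%, above the 10.7% to 13.7% of replicate 1 in each stretch.

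**Figure D3:**
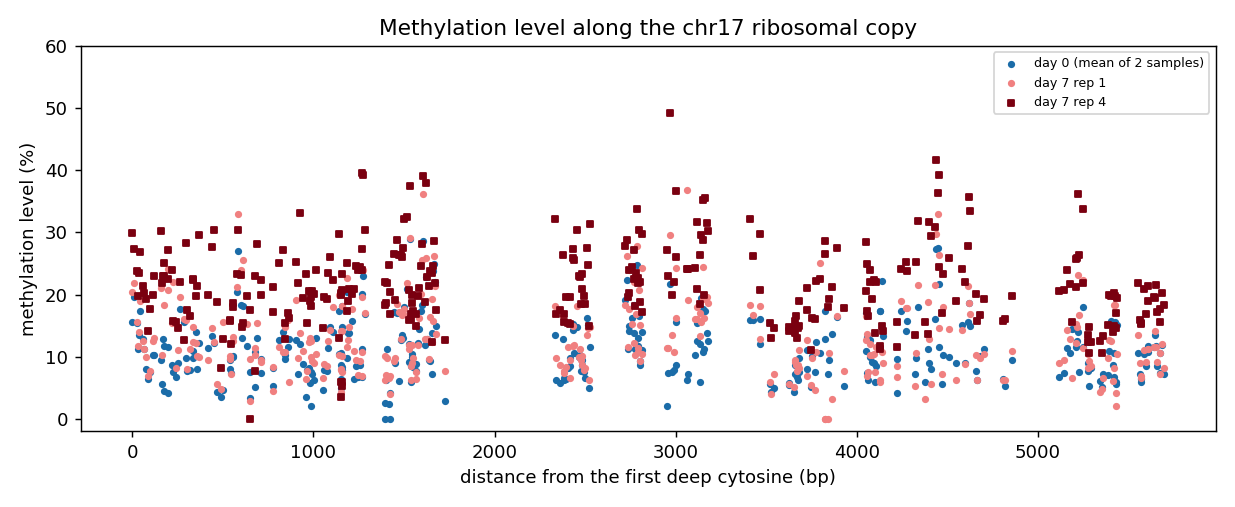
Methylation level (%) of the 341 deep cytosines of the ribosomal copy against distance from the first of them in bp, for the mean of both day 0 samples and each day 7 sample. Day 7 replicate 4 lies above replicate 1 along the copy, at 317 of the 337 cytosines that each sample covered by 10 reads or more.

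**Figure D4:**
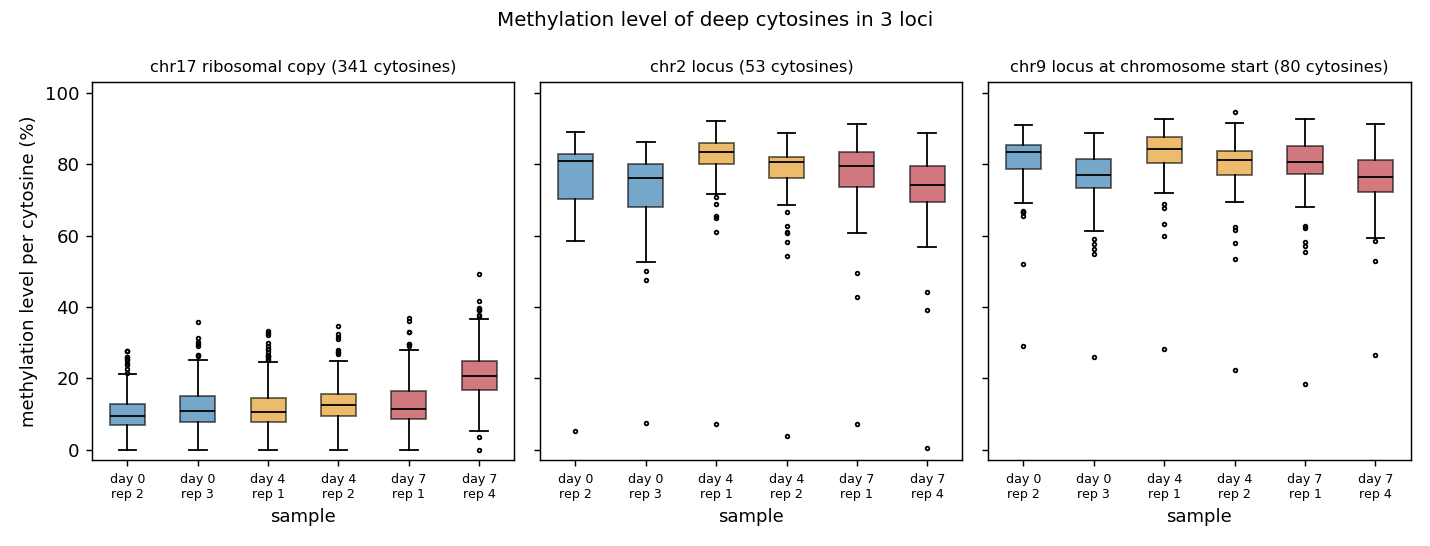
Methylation level (%) per cytosine in each sample for the ribosomal copy (341 cytosines), the chromosome 2 locus (53) and the start of chromosome 9 (80). Boxes give the quartiles and median, whiskers reach the farthest cytosine within 1.5 box lengths, and points are cytosines beyond; the ribosomal copy is low and highest in day 7 replicate 4, and both other loci are high.

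A short locus near the start of chromosome 6, chr6:3151209-3151495, repeated the positions of part of the ribosomal copy. All 9 of its cytosines coincided after a single shift with listed cytosines of chr17:39984065-39984351, whereas the next best shift matched 6. The chromosome 6 locus had 503 and 547 RPM at day 0, 462 and 523 at day 4, then 35.1 and 150.5 at day 7, a 5.66-fold lower mean than at day 0. Replicate 1 was 15.0-fold and replicate 4 3.49-fold below the day 0 mean. At the 9 matched positions of chromosome 17 the RPM were 322 and 352, then 331 and 355, then 573 and 527. Summed over the 9 positions, reads were thus fewer on the chromosome 6 side and more on the chromosome 17 side at day 7. Single positions of chromosome 17 went both ways. From day 0 to day 7 chr17:39984087 rose from 2.65 and 2.06 RPM to 111 and 90.8. By contrast chr17:39984336 fell from 117 and 127 RPM to 19.6 and 37.2.

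Over both sides, the matched positions had 825 and 899 RPM at day 0, 793 and 878 at day 4, then 608 and 678 at day 7. The chromosome 6 side held 61.0% and 60.9% of these reads at day 0, 58.2% and 59.6% at day 4, then 5.77% and 22.2% at day 7. The drop was sharpest at 4 cytosines from chr6:3151231 to chr6:3151245, where chromosome 6 held 94.7% to 97.2% of the reads at days 0 and 4 and 1.54% to 10.0% at day 7. At chr6:3151231 the reads were 573 and 485, then 535 and 393, then 14 and 28. At its partner chr17:39984087 they were 25 and 15, then 28 and 21, then 890 and 266. At chr6:3151442 the share on chromosome 6 was 36.7% and 36.3%, then 34.3% and 36.1%, then 33.9% and 49.8%. The drop in share thus did not extend over the whole locus, but depth there fell on both sides. From day 0 to day 7 chr6:3151442 went from 67.7 and 72.8 RPM to 10.1 and 36.2. Its partner chr17:39984298 went from 117 and 128 RPM to 19.7 and 36.5.

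**Figure D5:**
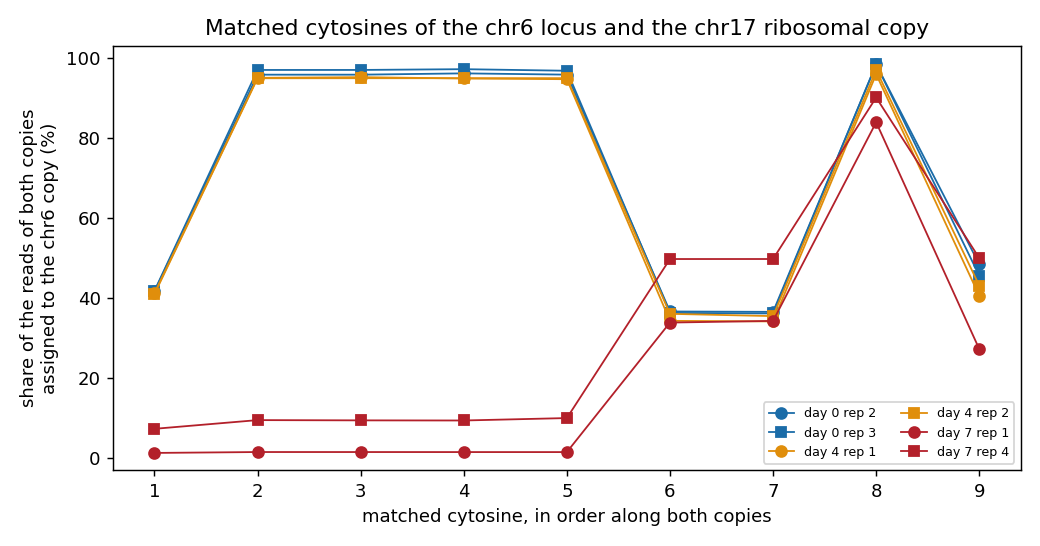
Share (%) of the reads of both copies that lay on chromosome 6, for the 9 matched cytosines in order along the copies, 1 line per sample. At the cytosines in places 2 to 5 the share is 94.7% to 97.2% at days 0 and 4 and 1.54% to 10.0% at day 7.

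A pair of loci was read deeply at day 7 alone. The locus chr13:9833565-9833714, with 15 deep cytosines, had 32.7 and 17.2 RPM at day 0, 27.9 and 33.3 at day 4, then 3152 and 2738 at day 7. Its day 7 mean was 118-fold higher than at day 0 and 96.3-fold higher than at day 4. Its level was 18.3% and 16.9%, then 23.3% and 36.0%, then 17.1% and 22.7%. At days 0 and 4 these levels rest on 309 and 125, then 267 and 208 reads summed over the 15 cytosines. The locus chr16:57391487-57391629, with 12 deep cytosines, had 48.6 and 48.6 RPM, then 34.9 and 44.5, then 1924 and 1861. It was 38.9-fold deeper at day 7 than at day 0, with levels of 11.4% and 24.0%, then 31.5% and 20.4%, then 16.6% and 25.4%. Its levels at days 0 and 4 rest on 459 and 354, then 334 and 278 reads summed over the 12 cytosines. In both loci the day 7 replicates lay close together in depth, unlike at the loci of chromosomes 2 and 9.

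Further loci with no overlap between day 7 and day 0 were small. The single cytosine chr11:3058865 had 11 and 10 reads at day 0, 14 and 16 at day 4, then 336 and 130 at day 7, which is a 34.0-fold higher relative depth than at day 0. Its level was 45.5% and 40%, then 57.1% and 68.8%, then 77.7% and 78.5%. The 3 cytosines of chr12:3109911-3110026 were 18.9-fold deeper at day 7 than at day 0. As at chromosome 2, the latter gain was carried by replicate 4, 34.2-fold above the day 0 mean, against 3.50-fold for replicate 1. Relative to day 4, the 2 cytosines of chr6:47728155-47728189 were 16.8-fold deeper at day 7, and the cytosine on unplaced sequence was 12.1-fold deeper. The latter had 3.24 and 6.08 RPM at day 4 and 11.9 and 101 at day 7.

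Other loci were shallower at day 7. The 7 cytosines of chr6:67270685-67270813 had 303 and 259 RPM at day 0, 297 and 277 at day 4, then 41.9 and 54.9 at day 7, a 5.80-fold lower mean than at day 0. Their level was 77.6% and 77.1%, then 81.5% and 77.9%, then 82.7% and 88.8%. The 5 cytosines of chr11:3073761-3073840 were 4.89-fold lower (25.6-fold in replicate 1 and 2.70-fold in replicate 4) and the 3 of chr3:22629386-22629397 3.08-fold lower. The 22 cytosines of chr13:120277556-120280894, in the last Mb listed on that chromosome, had 496 and 430 RPM, then 486 and 452, then 339 and 177, which is 1.80-fold lower. Their level was 84.1% and 77.5%, then 82.9% and 77.7%, then 85.1% and 66.4%, with the lowest value again in the shallow replicate 4.

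The other loci named for their reads or number of cytosines differed by less than 2-fold between day 7 and day 0. The 9 cytosines of chr5:147072753-147072870 had 1379 and 1363 RPM at day 0, 1449 and 1480 at day 4, then 884 and 1805 at day 7. Their level was 11.5% and 14.3%, then 13.8% and 15.0%, then 13.1% and 24.0%, so day 7 replicate 4 was the highest sample here as at the ribosomal copy. The 14 cytosines of chr11:3085964-3095647 were 1.91-fold deeper at day 7 than at day 0 with no overlap, at levels of 69.5% and 66.6%, then 77.5% and 68.4%, then 74.0% and 73.1%. The 12 cytosines of chr16:11144155-11144198 had 270 and 144 RPM, then 181 and 392, then 57.1 and 235, so all 3 days overlapped. The 2 cytosines of chr1:5245546-5245692 had 332 and 365, then 346 and 312, then 416 and 380 RPM, at levels between 73.5% and 81.1%.

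Over all 34 loci, 18 were deeper at day 7 than at day 0 with no overlap between the samples, 8 were shallower and 8 overlapped. This count had no fold limit, so a locus such as chr1:5245546-5245692, at 1.14-fold, entered it. No such count was made for loci of other sequence. With 2 against 2 samples, permuted labels give no overlap at a rate of 0.333, so the count of loci is a description only. Counted per cytosine with the 2-fold limit, 227 of the 637 were deeper and 106 shallower at day 7 than at day 0, where the same 4.7% and 3.79% of all autosomal cytosines were so. Relative to day 4, 212 were deeper and 108 shallower, beside 4.69% and 3.91% of all. Only 9 were deeper at day 4 than at day 0 and 0 shallower, beside 1.21% and 1.18%. Without day 7 replicate 4 the count shallower than at day 0 was 183, and those deeper and shallower than at day 4 were 124 and 210. The count deeper at day 4 than at day 0 was 42 without day 0 replicate 2, 20 without day 0 replicate 3, 71 without day 4 replicate 1 and 0 without day 4 replicate 2. The count shallower at day 4 was 3 without day 0 replicate 3 and 5 without day 4 replicate 2. Of the 53 cytosines of the chromosome 2 locus 50 were deeper at day 7 than at day 0, as were 72 of the 80 at the start of chromosome 9. Depth chose these cytosines, and a cytosine could enter the list through its day 7 reads alone: 191 had over 50% of their reads in the day 7 samples together, 73 of them in replicate 1 alone and 54 in replicate 4 alone, whereas no other sample held over 50% of any. The counts are therefore descriptions of the chosen cytosines, and no comparison with the background is drawn from them.

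At day 4 the changes in depth were small. The largest rises without overlap between day 4 and day 0 were 1.84-fold at chr12:3109911-3110026, 1.73-fold at chr9:35112845-35113167 and 1.63-fold at chr15:74917197. Next came chr11:3058865 at 1.58-fold and chr6:103599161-103599281 at 1.46-fold. The only locus that was lower at day 4 without overlap was chr16:57391487-57391629, by 1.23-fold. Day 4 replicate 2, the shallower of that pair, was the higher sample in each of these 5 rises.

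Averaged over all 637 cytosines, the level was 35.2% and 34.9% at day 0, 37.7% and 37.1% at day 4, then 37.6% and 41.1% at day 7. The group means were 35.0% ± 0.258, 37.4% ± 0.451 and 39.3% ± 2.50 (SD, n = 2). Day 4 and day 7 were each above day 0 without overlap, by 2.33 and 4.30 percentage points, and each reached the smallest p of the exact permutation test, 0.333 (adjusted p = 0.786). Day 7 and day 4 overlapped, with a difference of 1.98 and an exact permutation p of 0.667. Without day 7 replicate 4 the difference was 2.53 percentage points between day 7 and day 0 and 0.206 between day 7 and day 4. Weighted by reads, in place of an equal weight per cytosine, the differences from day 0 were 5.99 at day 4 and 19.5 at day 7. Day 7 was then 13.5 above day 4. A weighted average also moves when reads shift between loci of low and high level. The highly methylated chromosome 2 locus had 17157 and 15877 RPM at day 0 and 32338 and 158519 at day 7. With equal weight per cytosine, the level of this locus differed by 0.01 percentage points between these days. Its level weighted by reads was not compared. The part of such shifts in the weighted differences was not tested. With equal weight per run, day 7 was 0.211 above day 4. Other autosomal cytosines averaged 45.6% ± 1.24 at day 0, 47.4% ± 1.12 at day 4 and 48.4% ± 0.789 at day 7, and whether the difference is particular to deep cytosines was not tested. The average joins loci of low and high level: 8 loci with 402 of the cytosines lay below 30%, 21 loci with 226 of them lay at 65% or above, and 5 loci lay between.

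Methylation was next tested cytosine by cytosine with edgeR on methylated and unmethylated reads, over the 10559 cytosines that each sample covered by 10 reads or more, 609 of them deep. The 28 deep cytosines left out included 10 at chr13:9833565-9833714, 5 each at chr11:3073761 and chr13:120277556, and 4 in the ribosomal copy. A call needed an adjusted p below 0.05 after Benjamini-Hochberg adjustment over all cytosines tested, and a difference of group means of at least 20 percentage points. Between day 4 and day 0 no deep cytosine was called in either direction, as 0.0% of all tested were. At an unadjusted edgeR p below 0.05, 15 deep cytosines (2.46%) were higher and 0 lower, beside 2.64% and 1.07% of all cytosines tested, and quasi-likelihood, limma and Fisher's exact test called 0 of them. Over the deep cytosines tested the median difference was 1.53 percentage points between day 4 and day 0, against 0 for other autosomal cytosines. Between day 7 and day 0 it was 4.82 against 2.33.

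Between day 7 and day 0 edgeR called 4 deep cytosines higher and 1 lower, where 0.0852% and 0.0189% of all tested cytosines were called. Between day 7 and day 4 it called 6 higher and 1 lower, where 0.0947% and 0.0284% were called. Both comparisons share the day 7 samples. With limma on log ratios none of these calls remained, and leaving out day 7 replicate 1 gave 23 and 22 calls. Leaving out day 7 replicate 4 gave 2 and 2. At an unadjusted edgeR p below 0.05, 148 deep cytosines were higher and 8 lower than at day 0, and 67 were higher and 20 lower than at day 4. Of all cytosines tested, 6.66% were higher and 0.919% lower than at day 0 at this p, and 4.56% and 1.67% than at day 4. Deep cytosines have more reads than most others tested, so smaller differences can reach this p among them. Neighbouring deep cytosines share reads, so these counts are not counts of independent sites.

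The 4 cytosines called higher in both comparisons were neighbours within 15 bp on chromosome 6, the 4 whose share of reads on chromosome 6 was 94.7% to 97.2% at days 0 and 4 and 1.54% to 10.0% at day 7. At chr6:3151240 the level was 10.5% and 8.45% at day 0, 9.70% and 10.7% at day 4, then 64.3% and 39.3% at day 7 (edgeR adjusted p = 0.0005944 against day 0 and 0.001994 against day 4). At chr6:3151231 it was 4.54% and 3.30%, then 4.86% and 6.62%, then 42.9% and 25.0% (adjusted p = 0.001014 and 0.01646). The day 7 levels rest on 14 reads in replicate 1 and 28 in replicate 4, against 393 to 574 reads in the other samples. Their partners chr17:39984096 and chr17:39984087, where most day 7 reads lay, were at 10.7% and 14.9%, and at 5.96% and 11.7%, in the day 7 samples. The higher level at day 7 was thus measured on the few reads still placed on chromosome 6.

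At chr6:3151233 and chr6:3151245 the adjusted edgeR p was 0.002133 and 0.0005944 against day 0. Against day 0 chr6:3151240 was the only one of the 4 that was called in each fit that left out 1 sample. Without day 7 replicate 4 the adjusted edgeR p was 0.1584 at chr6:3151231, 0.6215 at chr6:3151233 and 0.09895 at chr6:3151245. Without day 0 replicate 3 it was 0.1116 at chr6:3151233. Against day 4 none of the 4 kept its call in each of these fits: without day 4 replicate 1 their adjusted edgeR p was 0.06329 to 0.3168, and without day 7 replicate 4 it was 0.05283 to 0.6661.

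The cytosine called lower was chr18:3005504, at the start of chromosome 18. Its level was 59.3% and 23.5% at day 0, 58.3% and 44.4% at day 4, then 5.11% and 5.26% at day 7 (edgeR adjusted p = 4.614e-05 against day 0 and 5.12e-07 against day 4). Its reads were 27 and 17, then 24 and 18, then 313 and 114, so the low level came with a gain of reads. The adjacent position chr18:3005505 had 371 and 365 reads, then 343 and 256, then 497 and 160, with levels of 75.2% and 69.9%, then 82.2% and 72.7%, then 84.1% and 71.2%. The levels of these adjacent positions differed by up to 79.0 percentage points in a sample, the most among the 8 pairs of deep cytosines that lay 1 bp apart. Without day 0 replicate 2 the adjusted p against day 0 was 0.7374, and without day 4 replicate 1 that against day 4 was 0.06329.

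Against day 4 alone 2 more deep cytosines were called higher. At chr16:11144190 the level was 5.45% and 12.1% at day 0, 4.76% and 2.87% at day 4, then 25.0% and 26.2% at day 7 (edgeR adjusted p = 0.001706). At chr17:39983020, in the ribosomal copy, it was 5.85% and 6.56%, then 8% and 0%, then 36.8% and 24.1% (adjusted p = 0.01601), over 19 and 29 reads at day 7. Neither was called without day 4 replicate 2 (adjusted p = 0.331 and 0.7044) or without day 7 replicate 4 (0.2328 and 0.2002). Without day 7 replicate 1 the latter had an adjusted p of 0.05796. Against day 0 their adjusted edgeR p was 0.1769 and 0.05973.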

How the data were processed

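The authors deposited 1 table with, per sample, a methylation fraction and the read counts behind it, methylated and unmethylated. Per the submitters' processing notes, Bismark and Bowtie2 were used on mm9. Their versions, and how duplicates and strands were treated, were not given in the sources used here. Each deposited fraction equalled methylated over all reads, and each listed autosomal cytosine had at least 10 reads summed over a group. Levels were computed from the deposited counts as percent methylated. PCR reads carry no molecular identifiers, so intervals cover counting error only.

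Samples were grouped by title. Relative depth was scaled to autosomal reads outside the deep cytosines. Levels of loci were compared by exact permutation over samples. Cytosines that each sample covered by 10 reads or more entered an edgeR 4.0.16 fit under R 4.3.3 (negative binomial model of both counts, term per sample, likelihood ratio test, Benjamini-Hochberg adjustment). In simulated data for day 7 against day 0 with 9261 cytosines and 200 changed, it recovered 8% at a planted 20 points and 62% at 40 points. Of 71 calls 1 was false. A call there also needed an observed difference of at least 20 points, which a planted 20 points can miss. Simulated cytosines were drawn independently and with 1 fixed spread between samples. Neighbours in the data share reads, and whether that spread fits these samples was not tested, so the rates need not hold here.

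The members, lists and tests were chosen with earlier results of these data known. Named were the 10 loci with most reads, loci of at least 10 deep cytosines, up to 5 called cytosines per direction, the 5 largest rises and falls of relative depth without overlap per contrast, and the cytosines nearest the limit; extreme single cytosines were added after their values were seen. Alternatives were other read limits, scalings, fold limits, coverage minimums and tests (edgeR quasi-likelihood, limma 3.58.1 with pseudocount 0.5, Fisher's exact test), and leaving out each sample.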

Additional observations from a re-analysis of the deposited data

Results flagged for a closer look

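Mitochondrial cytosines, which lie outside the autosomal sequence compared above, carried more reads and a higher methylated share at day 7 than in the day 0 samples. Of the 31 listed mitochondrial cytosines 10 had at least 500 reads in all. Day 7 replicates 1 and 4 had 296 and 2595 mitochondrial reads for each 1000000 autosomal reads outside the deep cytosines, against 252 and 224 at day 0. The methylated share of these reads was 2.27% and 1.76% in the same samples, against 0.547% and 0.490% at day 0. Differences between days in these values were not tested.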

How the results depend on the processing

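No paired analysis was possible because the groups compared share at most 1 replicate number. Counts within 1.5 times the main count, shares within the spread of replicates and level differences that kept direction made up 125 of the alternative values, and 49 moved. With 2 samples in a group, a share with 1 of them left out lies within that spread by construction. Counts of deeper and shallower cytosines changed order: without day 7 replicate 4, 124 were deeper and 210 shallower at day 7 than at day 4, and without day 4 replicate 2, 0 were deeper and 5 shallower at day 4 than at day 0. Differences between day 4 and day 0 that were not called changed sign at chr18:3005504 (9.99 to -7.87 percentage points without day 0 replicate 3) and chr17:39983020 (-2.21 to 1.79 without day 4 replicate 2). For values that moved, the cause was not tested, except that fewer cytosines or samples enter some fits by construction. Requiring 20 reads in each sample left 0 deep calls between day 7 and day 0 and 1 between day 7 and day 4. Each deep cytosine called against day 0 had a sample with fewer than 20 reads, so it was not tested in that fit. The same held for those called against day 4, except chr16:11144190. These losses followed from the coverage limit and say nothing about the calls.

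The number of deep cytosines was 1015 at a limit of 250 reads, and 618 to 646 when a sample was left out. The day 0 share of reads was 5.37% at a limit of 250 reads and 4.95% at 1000, and with 1 sample left out the shares ran from 5.09% to 5.18% at day 0, 5.51% to 6.27% at day 4 and 6.44% to 18.3% at day 7. Leaving out a sample gave differences of mean level of 2.01 to 2.65 percentage points for day 4 minus day 0, 2.53 to 6.07 for day 7 minus day 0 and 0.206 to 3.75 for day 7 minus day 4.

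Over all cytosines tested, calls between day 4 and day 0 were 0 in the edgeR test, 5 with Fisher's exact test and 1 with at least 5 reads. Between day 7 and day 0 the 11 calls became 18 with a minimum difference of 0 or 10 points, 7 with quasi-likelihood, 7 with limma, 37 with Fisher's exact test, 18 with at least 5 reads and 1 with at least 20, and 5 to 59 with a sample left out. Between day 7 and day 4 the 13 calls became 8, 3 and 31 with quasi-likelihood, limma and Fisher's exact test, 3 with at least 20 reads and 3 to 54 with a sample left out.

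Among deep cytosines, the 5 calls between day 7 and day 0 became 10 with a minimum difference of 0 or 10 points, 0 with limma, 8 with Fisher's exact test, and 2 to 23 with a sample left out. The 7 calls between day 7 and day 4 became 0 with limma, 14 with Fisher's exact test, 4 with at least 5 reads and 2 to 22 with a sample left out.

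The count of deep cytosines deeper at day 4 than at day 0 was 0 with a 3-fold limit and 0 to 71 with a sample left out, and the count shallower was 0 to 5. At day 7 against day 0 the counts with a sample left out were 194 to 247 deeper and 98 to 183 shallower, and against day 4 they were 124 to 236 and 100 to 210.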
